A study of Mus musculus with 6 samples.

Results

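The mitochondrial carrier family, named Slc25, was examined in endothelial cells sorted from the retina of mouse pups with and without an inducible deletion of Rnf20. Its members were taken by name: each gene symbol of the deposited table that starts with Slc25a and a digit, 1 RefSeq transcript entry per symbol, the longest. This gave 47 of 19124 genes. All pups were C57BL/6 and of genotype Rnf20p/p, and each was given 75 µg of Z-4-HO-Tamoxifen per day on postnatal days 1 to 4. The 3 Ctrl pups lacked Pdgf{beta}CreERT2, a tamoxifen-inducible recombinase driven by a promoter active in endothelium, and the 3 KO pups carried it. RNA came from CD31-positive cells of the retina at day 7, when its vessels are still spreading, with 1 pup per library by the source names. The labels give no litter, sex or batch, and do not say which part of Rnf20 is lost. Rnf20 is an E3 ubiquitin ligase acting on histone H2B, and the series title asks how its amount bears on VEGF and Notch signalling during sprouting.

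Carriers of this family sit for the most part in the inner mitochondrial membrane, which is closed to charged metabolites, and each moves a small set of substrates across it: adenine nucleotides, phosphate, carboxylates, amino acids, cofactors or iron. They are made in the cytosol and inserted by the TIM22 translocase. Endothelial cells draw much of their ATP from glycolysis, and their mitochondria are known largely for supplying building blocks and redox balance. Photoreceptors and other retinal neurons are rich in mitochondria.

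The libraries held 14581701 to 30692948 counts. Rnf20 itself was at 47.9, 57.1 and 56.8 CPM (counts scaled to a common library total, with TMM scaling between libraries) in Ctrl 1, 2 and 3 and at 39.1, 31.0 and 31.7 CPM in KO 1, 2 and 3. Its groups did not overlap, but the difference missed the threshold of edgeR's quasi-likelihood test (log2 fold change −0.67, adjusted p = 0.101). The sorted cells held RNA of other retinal cells in every library. The 15 endothelial markers summed to 3740 to 5700 CPM in Ctrl and 11600 to 15800 CPM in KO, and 10 of them rose. The 14 photoreceptor markers summed to 18500 to 33100 CPM in Ctrl and 4670 to 22000 CPM in KO, lowest in KO 1 and highest among KO libraries in KO 3, and 2 fell. None of either list was at 0 in any library. The 15 inner retinal neuron markers summed to 2510 to 2950 CPM in Ctrl and 860 to 1630 CPM in KO, with 3 lower, and Gad1, Calb1 and Lhx1 at 0 in at least 1 library. The 12 microglial markers, none of them at 0, ranged from 237 to 1410 CPM in Ctrl and from 234 to 11800 CPM in KO, the latter in KO 2. In such bulk samples fewer cells of a type and less RNA per cell cannot be told apart. Each level below is relative to the other RNA in the sample, with TMM scaling, and is not an amount per cell.

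Of the 47 carriers 42 had enough counts to be tested. Slc25a39, Slc25a1 and Slc25a45 rose in KO, Slc25a27 fell, and 38 did not pass the test. These 4 are 9.52% of the tested carriers, against 10.3% of all 16217 genes tested. By direction 7.14% were higher and 2.38% lower, against 5.85% and 4.44% of all genes, so the share of carriers called was near the background. The log2 fold changes split evenly, 21 above and 21 below 0, with a median of −0.01 against 0.03 for all genes, and quartiles at −0.58 and 0.54 (all genes −0.57 and 0.70). Calls are from edgeR's quasi-likelihood test, with p adjusted over all genes by Benjamini and Hochberg's method and a threshold of 0.05. In 7 carriers each KO library was above each Ctrl library (16.7%, against 19.0% of all genes) and in 8 each was below (19.0%, against 18.9%). For a single carrier, 0.1 is the smallest two-sided p that an exact permutation of 3 and 3 pups allows. The authors' deposited table, made with DESeq2, has 11 of the 42 below an adjusted p of 0.05, 4 higher and 7 lower (26.2%, against 22.2% of the genes with a value there). DESeq2 run on the deposited counts also called 4 higher and 7 lower, against 23.4% of all genes it gave an adjusted p.

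**Figure D1:**
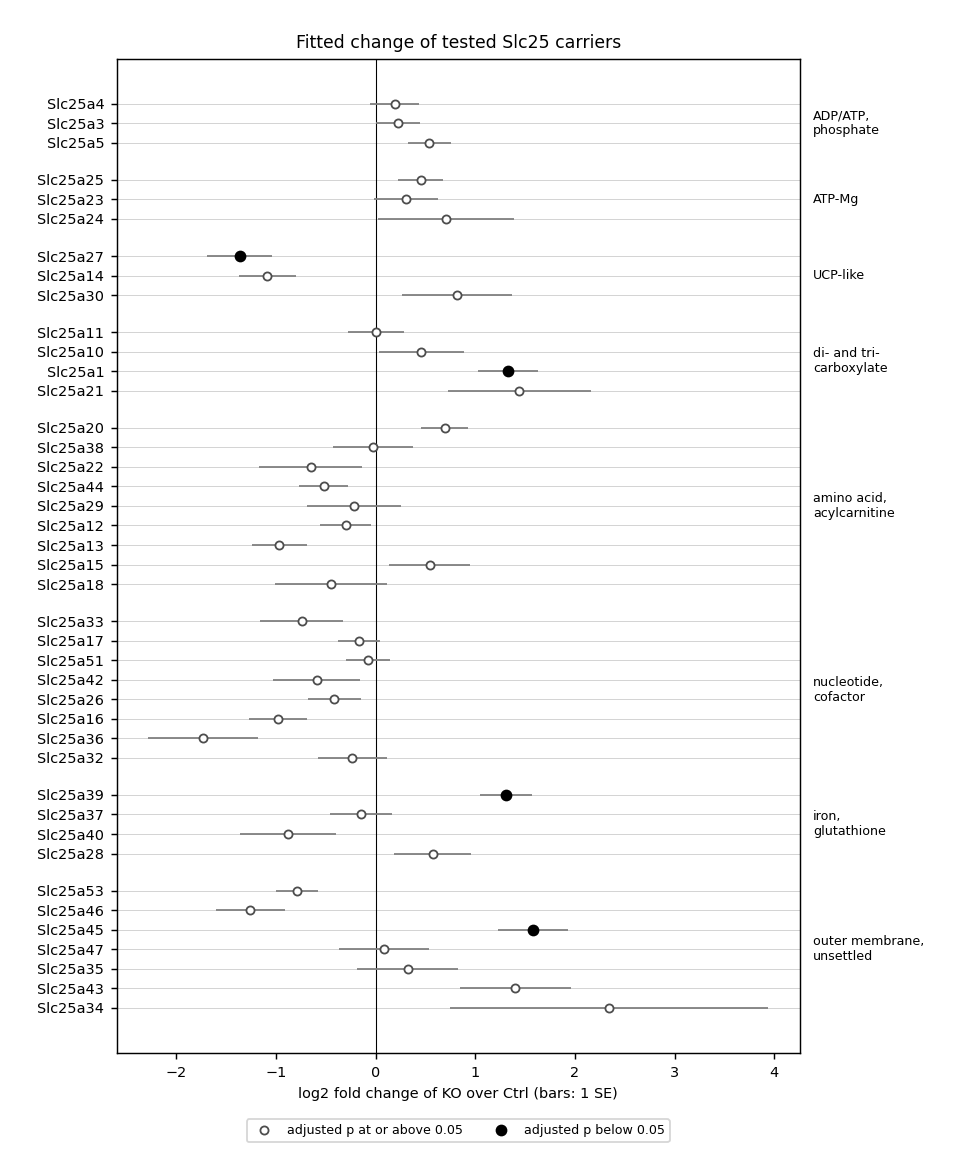
Fitted log2 fold change of KO over Ctrl (x axis) for the tested carriers other than 1 not reported by name, in role groups, with bars of 1 standard error; filled points passed edgeR's quasi-likelihood test with an adjusted p below 0.05. Filled points are Slc25a27 at −1.37, Slc25a1 at 1.33, Slc25a39 at 1.31 and Slc25a45 at 1.58, while the 3 most abundant carriers lie between 0.19 and 0.54.

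The summed level of all 47 carriers was 3670, 3080 and 3220 CPM in Ctrl 1, 2 and 3 against 3000, 3570 and 4010 CPM in KO 1, 2 and 3. These ranges overlap. Per kilobase of exonic length, the scale used here to set genes side by side, Slc25a4, Slc25a3 and Slc25a5 held 47.0% to 48.8% of the carriers' summed level in Ctrl and 48.1% to 54.9% in KO. The deposited length of 39 of the 47 is within 2% of the genomic span, so reads in introns may be among the counts, and what they add to these levels was not tested.

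The ADP/ATP and phosphate carriers feed ATP synthase and export its product. Slc25a4, the ADP/ATP carrier of heart, muscle and neurons, was the most abundant member in the mean of all libraries, at 360 ± 46.2 CPM per kilobase in Ctrl and 411 ± 67.5 in KO (SD, n = 3 each). Slc25a3, which imports phosphate, followed at 253 ± 22.3 and 296 ± 25.8, and Slc25a5, the ADP/ATP carrier typical of dividing cells, at 151 ± 7.94 and 220 ± 21.5 CPM per kilobase. In Ctrl these 3 levels were each apart from the next by more than their SD. Slc25a5 was at 192, 176 and 194 CPM in Ctrl against 242, 290 and 285 CPM in KO. Its KO libraries all lay above its Ctrl libraries, but the log2 fold change of 0.54 ± 0.217 (SE) missed the threshold of edgeR's quasi-likelihood test (adjusted p = 0.139). Slc25a5 has many processed pseudogenes, and how the authors treated reads that match several places is not given in the sources used here, so its count is uncertain. Slc25a4 (0.19) and Slc25a3 (0.23) had overlapping groups and did not pass either. Slc25a31, the ADP/ATP carrier of the germ line, had 22 counts over all 6 libraries and was not tested.

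Slc25a5 and Slc25a4 do the same exchange. In RNA of mixed cells their ratio does not tell how a cell or tissue divides the task, and transport was not measured. Per kilobase the ratio of Slc25a5 to Slc25a4 was 0.378, 0.446 and 0.446 in Ctrl 1, 2 and 3. It was 0.537, 0.613 and 0.471 in KO 1, 2 and 3. The KO ratios all exceeded the Ctrl ratios, narrowly in KO 3, the KO library with most photoreceptor RNA. The ratio of 8 pairs of closely related carriers was computed in this way, chosen after the values were seen and with no test. In 3 pairs the KO ratios were all above the Ctrl ratios and in 5 they overlapped. The 3 were Slc25a5 over Slc25a4, Slc25a39 over Slc25a40 and Slc25a30 over Slc25a14. The last rests on 27 to 162 counts of Slc25a30 per library. The share over other gene pairs was not computed, so the count has no background.

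**Figure D2:**
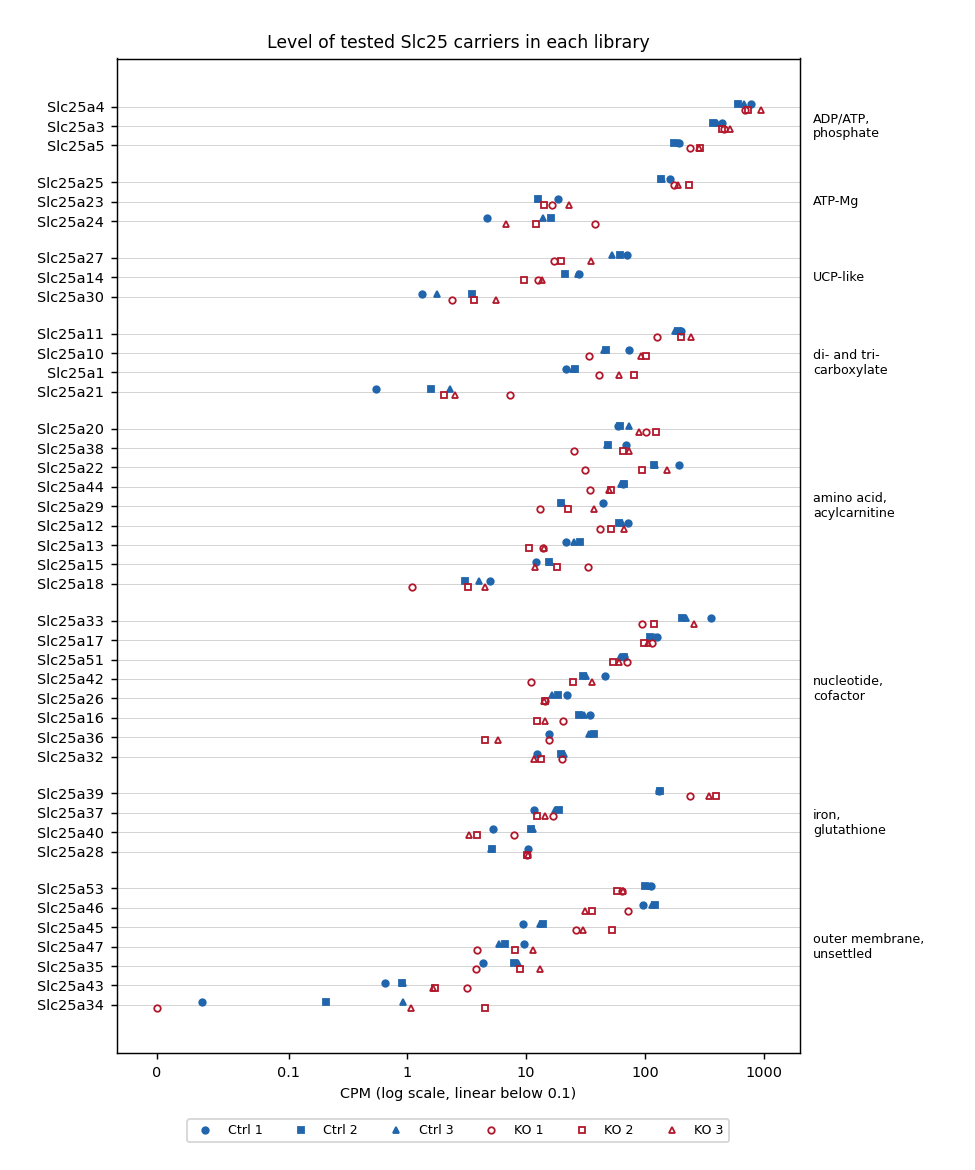
Level of the tested carriers, other than 1 not reported by name, in each library, in CPM on a log axis that turns linear below 0.1, with Ctrl libraries as filled and KO libraries as open symbols and carriers ordered within each role by their level per kilobase. Slc25a4 is highest, at 613 to 939 CPM, and the carriers' median SD on the log2 scale is 0.213 in Ctrl and 0.488 in KO.

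The glutathione and iron group held the carrier with the smallest adjusted p. Slc25a39 (NM_026542, chromosome 11, 102402969 to 102408675, GRCm38.p6) imports glutathione, the main thiol antioxidant, into mitochondria. It was at 131, 134 and 131 CPM in Ctrl 1, 2 and 3 against 238, 395 and 347 CPM in KO 1, 2 and 3. The Ctrl libraries were nearly equal and each KO library was above them. The mean rose 2.48-fold, from 132 ± 1.55 to 327 ± 80.7 CPM (SD, n = 3 each, 2011 to 10125 counts), with a log2 fold change of 1.31 ± 0.259 (SE) and an adjusted p = 0.0255 in edgeR's quasi-likelihood test. Per kilobase it was at 78.2 CPM in Ctrl, rank 6 among the carriers, and at 194 CPM in KO, rank 4. Its paralog Slc25a40, is also a glutathione carrier. Slc25a40 was at 5.26, 10.9 and 11.4 CPM in Ctrl against 7.84, 3.82 and 3.29 CPM in KO, with overlapping groups (log2 fold change −0.88, adjusted p = 0.253). The ratio of Slc25a39 to Slc25a40 per kilobase was 17.7 to 38.3 in Ctrl and 46.9 to 163 in KO.

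The mitoferrins bring iron to the mitochondria for haem and iron-sulphur clusters. Slc25a37, the mitoferrin of red cell precursors, was at 11.7, 19.0 and 17.4 CPM in Ctrl against 16.8, 12.2 and 14.5 CPM in KO (log2 fold change −0.15, adjusted p = 0.784). Slc25a38, which carries glycine for haem synthesis, was at 69.0, 48.8 and 48.1 CPM in Ctrl against 25.0, 64.9 and 73.2 CPM in KO (−0.02, adjusted p = 0.974). Neither differed between the groups by more than its spread. Beside them the erythroid markers, mostly globin genes that share reads, summed to 64.0 to 101 CPM in Ctrl and 471 to 702 CPM in KO. Among these 9 markers 6 rose, and Slc4a1 was at 0 in at least 1 library. Hba-a1 and Hba-a2 had the same CPM in every library, as did Hbb-bt and Hbb-b2, and Hbb-bs and Hbb-b1 nearly so. The 6 are thus not separate measurements, and the sums hold such values more than 1 time. Slc25a28, the mitoferrin of other tissues, was at 10.5, 5.16 and 5.02 CPM in Ctrl against 10.2, 10.2 and 10.4 CPM in KO, where Ctrl 1 was as high as KO.

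Among the carboxylate carriers the citrate exporter rose. Slc25a1 (NM_153150, chromosome 16, 17925211 to 17928219) moves citrate to the cytosol, where it supplies acetyl groups for lipid synthesis and histone acetylation. It was at 21.8, 25.8 and 24.8 CPM in Ctrl against 41.2, 80.9 and 60.0 CPM in KO, and the groups did not overlap. The mean rose 2.51-fold, from 24.2 ± 2.10 to 60.7 ± 19.9 CPM (SD, n = 3 each, 381 to 2032 counts), with a log2 fold change of 1.33 ± 0.301 (SE) and an adjusted p = 0.0345 in edgeR's quasi-likelihood test. Of the enzymes downstream of it, Acaca, which commits acetyl-CoA to fatty acids, fell from 18.2, 26.7 and 24.8 CPM to 8.82, 9.56 and 11.7 CPM (log2 fold change −1.21, adjusted p = 0.0413). Acaca overlaps Tada2a and Gm11437, so its count is uncertain. Acly, which splits the exported citrate, was at a log2 fold change of −0.87 and missed the threshold (adjusted p = 0.0745).

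The other carboxylate carriers did not pass the test. Slc25a11, the oxoglutarate carrier of the malate-aspartate shuttle, was at 202, 189 and 180 CPM in Ctrl against 126, 202 and 244 CPM in KO, so the KO libraries spread to either side of Ctrl. Its span overlaps Rnf167, so its count is uncertain. Slc25a10, the dicarboxylate carrier, was at 74.1, 47.3 and 45.2 CPM in Ctrl against 33.7, 102 and 93.2 CPM in KO (0.46, adjusted p = 0.498). KO 1 was the lowest library for both. Slc25a21, an oxodicarboxylate carrier, was below 8 CPM in all libraries (1.44, adjusted p = 0.214), and it overlaps Pax9.

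Slc25a45 (NM_001361973, chromosome 19, 5877801 to 5885768) is a carrier whose substrate was long unsettled. It was at 9.47, 14.0 and 13.0 CPM in Ctrl against 26.2, 52.9 and 30.0 CPM in KO, with no overlap. The mean rose 2.99-fold, from 12.2 ± 2.38 to 36.4 ± 14.4 CPM (SD, n = 3 each, 200 to 1327 counts), with a log2 fold change of 1.58 ± 0.355 (SE) and an adjusted p = 0.0339 in edgeR's quasi-likelihood test. KO 2 was the highest library for Slc25a39, Slc25a1 and Slc25a45 alike, and KO 1 the lowest of KO. KO 2 also had the highest sum of endothelial, microglial and glial markers. Its glial sum of 16900 CPM was mostly Apoe, at 14882 CPM in KO 2 against 445 CPM in KO 1 and 3770 CPM in KO 3. Its endothelial sum of 15800 CPM held 7176 CPM of Cldn5. Tie1, Egfl7, Esam, Cldn5, Eng, Robo4 and Icam2 were highest of KO in KO 2. Pecam1, Cdh5, Tek, Erg, Kdr, Flt1 and Emcn were highest in KO 1, and Ramp2 in KO 3. The part of endothelial, microglial and glial cells in the 3 results was not tested.

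The 3 carriers that rose can be set beside the sequence at their start sites. The windows run from 250 bases before to 50 after a transcript start in RefSeq on GRCm38.p6, and that of Slc25a39 lies inside the span of the gene. Capitals mark the motifs found, on both strands: the GC box bound by Sp1-type factors (GGGCGG), the CCAAT box (CCAAT) and the E-box (CACGTG). No hit overlapped another.
Slc25a39, chr11:102407468-102407767, minus strand: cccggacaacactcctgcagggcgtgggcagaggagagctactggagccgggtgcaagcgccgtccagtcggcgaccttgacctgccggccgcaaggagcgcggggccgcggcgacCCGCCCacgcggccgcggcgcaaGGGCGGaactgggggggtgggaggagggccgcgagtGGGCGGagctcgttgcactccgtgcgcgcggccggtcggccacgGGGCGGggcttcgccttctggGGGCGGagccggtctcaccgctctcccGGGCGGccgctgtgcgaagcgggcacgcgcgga
Slc25a1, chr16:17928170-17928469, minus strand: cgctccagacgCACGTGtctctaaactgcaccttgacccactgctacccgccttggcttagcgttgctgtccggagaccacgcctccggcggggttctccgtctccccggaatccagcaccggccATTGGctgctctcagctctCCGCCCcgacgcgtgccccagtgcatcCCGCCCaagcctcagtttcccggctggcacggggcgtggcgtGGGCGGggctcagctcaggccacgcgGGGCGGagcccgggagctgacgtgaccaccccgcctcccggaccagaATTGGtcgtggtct
Slc25a45, chr19:5877572-5877871, plus strand: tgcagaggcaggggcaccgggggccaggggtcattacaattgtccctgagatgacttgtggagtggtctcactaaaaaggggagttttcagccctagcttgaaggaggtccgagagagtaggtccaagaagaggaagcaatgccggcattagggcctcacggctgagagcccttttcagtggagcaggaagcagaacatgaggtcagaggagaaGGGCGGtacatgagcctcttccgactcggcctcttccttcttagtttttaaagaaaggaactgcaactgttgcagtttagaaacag
The first 2 windows are GC-rich, at 77.3% and 69.3% G or C with 6 and 4 GC boxes, and that of Slc25a1 also holds 2 CCAAT boxes and 1 E-box. The window of Slc25a45 is at 52.7% with 1 GC box, so the 3 share only that motif among those searched. A GC box is in 58.2% of the 16026 windows of tested genes and in 38 of the 46 windows of carriers (82.6%). A CCAAT box is in 37.3% and 47.8% of them, and an E-box in 9.35% and 17.4%. The median GC content is 59.3% in carrier windows and 52.7% in all 32851 windows, and its part in these shares was not tested. The ETS site (CCGGAAG), the NRF1 core (GCATGCGC) and the ERR site (TCAAGGTCA), motifs of factors that act on many mitochondrial genes, were in none of the 3 windows and in 15.0%, 4.54% and 0.275% of those of tested genes. These are matches of letters and no evidence of binding. The table held windows for 36 of the 47 carriers.

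Of the relatives of the uncoupling proteins, Slc25a27 fell. Slc25a27 (UCP4, NM_001357122, chromosome 17, 43637739 to 43667214) is known mainly from neurons. It was at 70.8, 61.9 and 52.6 CPM in Ctrl against 17.2, 19.8 and 34.9 CPM in KO, and the groups did not overlap. Its mean dropped from 61.8 ± 9.12 to 24.0 ± 9.55 CPM (SD, n = 3 each, 439 to 2073 counts), a ratio of Ctrl to KO of 2.58, with a log2 fold change of −1.37 ± 0.328 (SE) and an adjusted p = 0.0397 in edgeR's quasi-likelihood test. The KO library with the highest level, KO 3, was also the highest of KO for photoreceptor and inner neuron markers. Inner neuron sums were lower in all KO libraries, and photoreceptor sums overlapped. Their part in this result was not tested. Slc25a14 (UCP5), also enriched in brain, was at 27.7, 21.3 and 27.4 CPM in Ctrl against 12.7, 9.60 and 13.6 CPM in KO. These groups did not overlap, but the log2 fold change of −1.09 ± 0.286 (SE) just missed the threshold of edgeR's quasi-likelihood test (adjusted p = 0.0501). Slc25a30 was below 6 CPM throughout (0.82, adjusted p = 0.348).

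**Figure D3:**
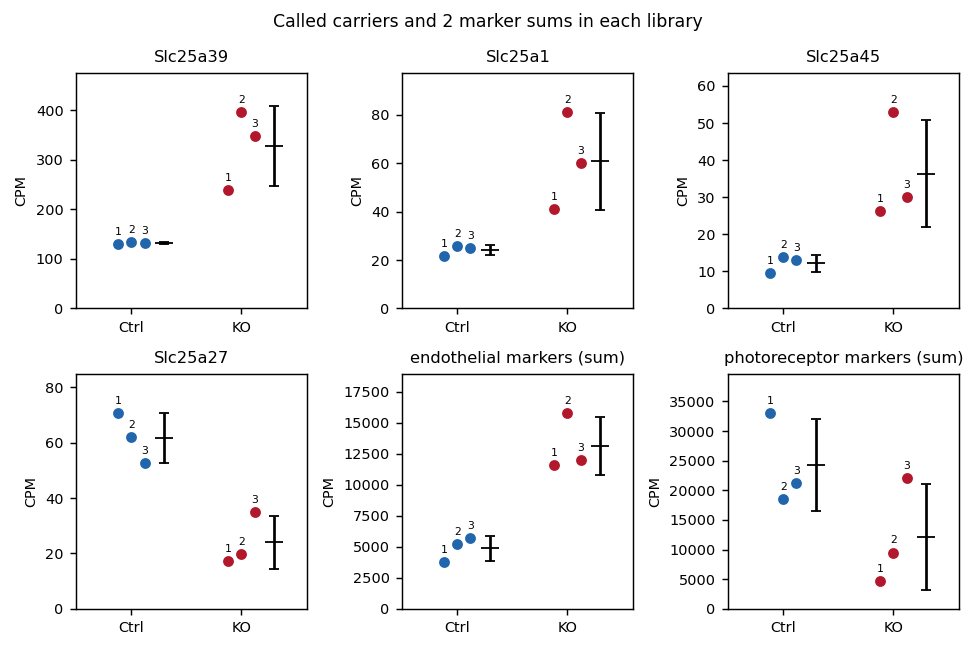
CPM of the 4 carriers that passed the test, and summed CPM of the endothelial and photoreceptor markers, in each library (points, numbered by replicate) with the mean and SD of each group (bars, n = 3). Endothelial markers separate the groups in the same direction as the 3 carriers that rose, and KO 3 is the KO library closest to Ctrl for Slc25a27 and for photoreceptor markers.

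The endothelial markers moved in the same direction as the 3 carriers that rose, with a median log2 fold change of 1.45 over the 15 markers. With libraries scaled to equal endothelial markers, all genes had a median of −1.23. The 3 carriers then stood at 0.06 for Slc25a39, 0.08 for Slc25a1 and 0.34 for Slc25a45. None of these passed edgeR's quasi-likelihood test (adjusted p = 0.912, 0.869 and 0.493). Under this scaling 0 carriers were higher and 21 lower (all genes called 47.2%), Slc25a27 at −2.60 among them. The ranges of adjusted p over 16 alternatives were 0.000237 to 0.912 for Slc25a39, 0.0015 to 0.869 for Slc25a1, 0.000828 to 0.493 for Slc25a45 and 0.00287 to 0.152 for Slc25a27.

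Of the 9 nucleotide and cofactor carriers 8 had estimates below 0, but 0 of the 9 passed edgeR's quasi-likelihood test. At an unadjusted p below 0.05 there were 2, Slc25a36 and Slc25a16, and DESeq2 called both, while 30.5% of all genes had such a p and DESeq2 called 23.4%. Slc25a36, which carries pyrimidine nucleotides, was at 15.7, 37.2 and 33.6 CPM in Ctrl against 15.7, 4.5 and 5.76 CPM in KO (log2 fold change −1.73 ± 0.552 SE, adjusted p = 0.079). KO 1 matched Ctrl 1 and the other KO libraries were well below. Slc25a16, tied to coenzyme A, was at 34.6, 28.0 and 30.4 CPM in Ctrl against 20.6, 12.2 and 14.4 CPM in KO, with no overlap (−0.98, adjusted p = 0.0688). Slc25a33, the second pyrimidine carrier, had rank 4 per kilobase in Ctrl and rank 6 in KO. It was at 363, 205 and 222 CPM in Ctrl against 95.1, 120 and 257 CPM in KO (−0.74, adjusted p = 0.265). Slc25a17, the peroxisomal carrier of cofactors, had a narrow spread, 110 to 126 CPM in Ctrl and 98.7 to 115 CPM in KO (−0.17, adjusted p = 0.635). Slc25a51, the importer of NAD+, was at 62.0 to 66.7 CPM in Ctrl and 53.7 to 70.4 CPM in KO (−0.08, adjusted p = 0.833). Slc25a26 (S-adenosylmethionine, its span overlapping Lrig1), Slc25a32 (folate) and Slc25a42 (coenzyme A) had log2 fold changes from −0.59 to −0.23.

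None of the 9 tested amino acid and acylcarnitine carriers passed edgeR's quasi-likelihood test, 2 had an unadjusted p below 0.05 (Slc25a13 and Slc25a20), and DESeq2 called the same 2, a count again beside 30.5% and 23.4% of all genes. Slc25a20, which brings acylcarnitines in for fatty acid oxidation, was at 59.7, 61.7 and 72.8 CPM in Ctrl against 101, 123 and 89.0 CPM in KO. All KO libraries were above Ctrl (log2 fold change 0.69 ± 0.236 SE, adjusted p = 0.0927). Slc25a13 and Slc25a12 are the aspartate/glutamate carriers of the malate-aspartate shuttle. Slc25a13, the form of liver and many dividing cells, was at 21.7, 28.3 and 25.1 CPM in Ctrl against 13.9, 10.5 and 14.1 CPM in KO, with no overlap (−0.97, adjusted p = 0.0621). Slc25a12, the form of brain and muscle, had overlapping groups, 60.2 to 72.7 CPM in Ctrl and 41.6 to 66.3 CPM in KO (−0.30, adjusted p = 0.452). Slc25a22, a glutamate carrier, ran from 119 to 195 CPM in Ctrl and was at 31.1, 94.4 and 152 CPM in KO (−0.65, adjusted p = 0.427). Slc25a44, which takes up branched-chain amino acids, was lower in each KO library (34.5 to 52.0 CPM) than in each Ctrl library (63.0 to 66.4 CPM) without passing (−0.52, adjusted p = 0.191). Slc25a15 (ornithine), Slc25a18 (glutamate) and Slc25a29 (basic amino acids) had overlapping groups. Slc25a2 had 29 counts in all and was not tested.

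The ATP-Mg/phosphate carriers set the size of the adenine nucleotide pool, and Slc25a23, Slc25a24 and Slc25a25 respond to calcium. Slc25a25 was the highest of them, at 162, 138 and 139 CPM in Ctrl against 176, 235 and 189 CPM in KO, with each KO library above Ctrl (0.45, adjusted p = 0.221). Its span overlaps Naif1, so its count is uncertain. Slc25a24 was at 4.72, 16.1 and 13.9 CPM in Ctrl against 37.7, 12 and 6.75 CPM in KO, where KO 1 alone was high (0.71, adjusted p = 0.519). Slc25a23 had overlapping groups (0.30), and Slc25a41, with 63 counts of which 45 were in Ctrl 1, was not tested.

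In the last group, Slc25a46 lies on the outer mitochondrial membrane, acts in fusion and fission, and is mutated in inherited optic atrophy. It was at 96.2, 122 and 115 CPM in Ctrl against 72.2, 35.5 and 31.5 CPM in KO. The groups did not overlap, and the log2 fold change of −1.26 ± 0.351 (SE) missed the threshold of edgeR's quasi-likelihood test (adjusted p = 0.0579, range 0.00229 to 0.187 over 16 alternatives). Slc25a53 was at 112, 99.7 and 111 CPM in Ctrl against 63.8, 57.8 and 65.6 CPM in KO, also without overlap (−0.79 ± 0.213 SE, adjusted p = 0.0532). It overlaps Zcchc18, and no use of strand in counting is stated, so reads of the 2 cannot be told apart. Slc25a43, at 0.649 to 0.912 CPM in Ctrl and 1.65 to 3.18 CPM in KO, rests on 14 to 81 counts per library (1.40, adjusted p = 0.137). Slc25a34, Slc25a35 (its span overlaps Rangrf) and Slc25a47 had overlapping groups, and Slc25a48 and Slc25a54, with 2 and 21 counts in all, were not tested. In all, 7 carriers had an adjusted p between 0.05 and 0.1 in edgeR's quasi-likelihood test, of which 6 had negative estimates. The share of all genes in this band was not computed, so the count has no background. Over all 42 tested carriers 21 estimates were above and 21 below 0.

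Genes around the carriers were counted on lists of other mitochondrial genes. Of 16 genes of the import route, 0 rose and 2 fell in edgeR's quasi-likelihood test, with 5 at an unadjusted p below 0.05, while DESeq2 called 3 higher and 2 lower. Of all genes, edgeR called 10.3%, 30.5% had such a p, and DESeq2 called 23.4%, so these counts have a large background. Both that fell in edgeR's test are parts of the TIM22 complex that inserts carriers. Timm29 was at 197, 141 and 148 CPM in Ctrl against 68.7, 71.5 and 74.8 CPM in KO (log2 fold change −1.17 ± 0.235 SE, adjusted p = 0.0265). Agk was at 16.2, 19.6 and 20.7 CPM in Ctrl against 9.29, 9.20 and 8.47 CPM in KO (−1.07 ± 0.280 SE, adjusted p = 0.0493). Neither gene's groups overlapped, but Timm29 shares its place with Yipf2 and its count is uncertain. The list as a whole had a median of 0.40, and 11 of its 16 estimates were above 0. Other parts of the complex missed the threshold, with log2 fold changes of 0.16 for Timm22, −0.07 for Timm9, 0.28 for Timm10 and 0.95 for Timm10b (adjusted p = 0.0868 for the last).

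Of 12 regulators of mitochondrial biogenesis 1 rose and 1 fell. Ppargc1a, the coactivator PGC-1α, fell from 34.2, 38.4 and 43.2 CPM to 13.3, 10.8 and 15.9 CPM (−1.54 ± 0.275 SE, adjusted p = 0.0229). Myc, a growth factor-responsive transcription factor, rose from 40.4, 35.4 and 40.3 CPM to 66.8, 124 and 98.6 CPM (1.32 ± 0.279 SE, adjusted p = 0.0302). Of 21 other mitochondrial transporters 1 rose, the sideroflexin Sfxn5, from 19.4, 26.3 and 36.4 CPM to 54.6, 76.2 and 89.4 CPM (1.42, adjusted p = 0.0339). Of 30 enzymes that use carried substrates 0 rose and 2 fell in edgeR's quasi-likelihood test, with 7 at an unadjusted p below 0.05, while DESeq2 called 3 higher and 4 lower. The 2 were Acaca and the mitochondrial arginase Arg2 (−1.19, adjusted p = 0.0488), whose span overlaps Vti1b. Of 15 haem and iron-sulphur genes 0 passed edgeR's quasi-likelihood test, while 2 had an unadjusted p below 0.05 (Alad at 0.69 and Fech at −0.54) and DESeq2 called 0. The 7 genes called on these lists kept their sign under all 16 alternatives and passed in 6 (Arg2) to 11 (Ppargc1a) of them. The adjusted p over these alternatives ranged from 0.000884 to 0.931 for Myc and from 0.00103 to 0.606 for Sfxn5. For the others it reached at most 0.201. Shares called on the 5 lists, from 0 of 15 to 2 of 12, stand beside 10.3% for all genes. The counts at an unadjusted p below 0.05 stand beside 30.5% of all genes, and those of DESeq2 beside 23.4%. Of 3 tested family members under other names 0 passed edgeR's quasi-likelihood test, and DESeq2 called 1. Ucp2, an uncoupling protein, was at 61.4, 73.9 and 56.0 CPM in Ctrl against 83.7, 472 and 211 CPM in KO (2.00, adjusted p = 0.0571), highest in KO 2, where microglial markers were highest too.

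The carriers' libraries lay further apart in KO than in Ctrl. The median SD of log2(CPM + 0.5) was 0.213 in Ctrl and 0.488 in KO over the 42 carriers, and 0.288 and 0.484 over all genes. In 23 of the 42 KO 1 was the lowest KO library (54.8%, all genes 41.4%). In 15 carriers KO 1 was the lowest and KO 3 the highest (35.7%, all genes 24.3%), the order in which photoreceptor markers stood. Of these 15, Slc25a4, Slc25a11, Slc25a28, Slc25a30, Slc25a35 and Slc25a47 had log2 fold changes above 0. Slc25a12, Slc25a18, Slc25a22, Slc25a27, Slc25a29, Slc25a33, Slc25a38 and Slc25a42 had them below 0. Those of Slc25a11 and Slc25a38 were near 0. Without KO 1, 6 carriers were higher and 7 lower in edgeR's quasi-likelihood test, and 29.7% of all genes were called. The 4 carriers called with all libraries were among these 13, with Slc25a10, Slc25a20 and Slc25a5 added above and Slc25a13, Slc25a14, Slc25a16, Slc25a36, Slc25a46 and Slc25a53 added below. Without Ctrl 1, Ctrl 2, Ctrl 3 or KO 2, 0 carriers and 0 genes passed, while an unadjusted p below 0.05 was held by 10 to 12 carriers (23.3% to 28.6%) and by 20.5% to 24.2% of all genes. In the fit of all 6 it was held by 13 carriers (31.0%) and 30.5% of all genes. Without KO 3 only Slc25a27 of the carriers passed. The log2 fold change stayed between 1.18 and 1.57 for Slc25a39, 1.09 and 1.62 for Slc25a1, 1.23 and 1.85 for Slc25a45, and −1.69 and −1.11 for Slc25a27 whichever library was left out.

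The changes went with the base composition of the transcripts. Over the 42 carriers the log2 fold change and transcript GC content had a Pearson r of 0.40 and a Spearman rho of 0.36, a description across genes that share the same 6 libraries. Over 16093 genes the values were 0.37 and 0.39. The 8 carriers under 45% GC had a median log2 fold change of −0.83, with 2 above 0, and the 13 at or over 55% had 0.30, with 9 above 0. Slc25a39 (59.7%) and Slc25a1 (59.1%) are near the upper end, Slc25a36 and Slc25a46 (40.7% each) near the lower, and Slc25a27 (49.8%) and Slc25a45 (53.3%) between. With offsets that remove the trend in each library, Slc25a39 was at 0.73 (adjusted p = 0.0408), Slc25a45 at 1.33 (0.0301) and Slc25a27 at −1.39 (0.028) in edgeR's quasi-likelihood test. Slc25a1 was then at 0.75 and did not pass (adjusted p = 0.056). The estimates of Slc25a39 and Slc25a1 were thus more than 1.5 times smaller, while that of Slc25a27 hardly moved. In that fit 2 carriers were higher and 4 lower (all genes called 13.0%), and Slc25a36, Slc25a44 and Slc25a46 passed as lower. Over all genes the share of calls that were higher went from 56.8% to 44.0%.

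**Figure D4:**
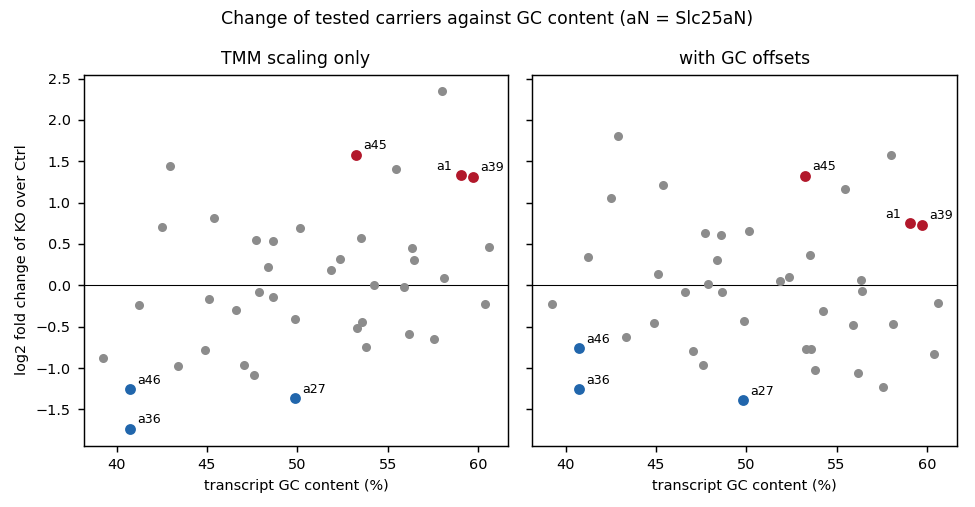
Log2 fold change of KO over Ctrl (y axis) against transcript GC content in percent (x axis) for the tested carriers other than 1 not reported by name, without (left) and with (right) offsets for GC content. Slc25a39 and Slc25a1 move from 1.31 and 1.33 down to 0.73 and 0.75, Slc25a46 from −1.26 up to −0.76, while Slc25a27 stays near −1.4.

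**Figure D5:**
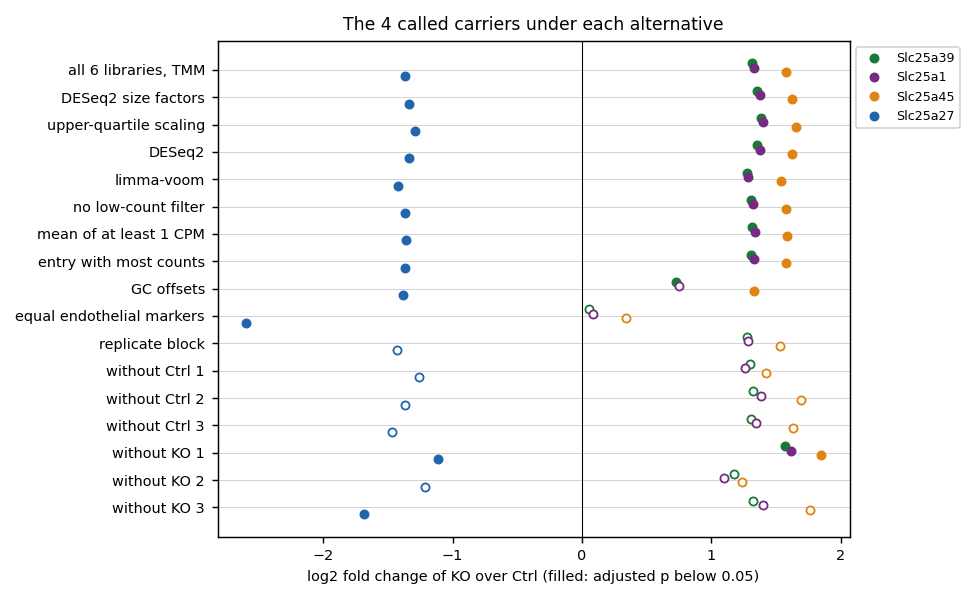
Log2 fold change of the 4 carriers that passed (x axis) in the fit of all 6 libraries and under each of the 16 alternatives (rows), filled where the adjusted p is below 0.05. The points keep their side of 0 throughout, while the rises shrink to between 0.06 and 0.34 when libraries are scaled to equal endothelial markers.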

How the data were processed

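Per the labels, RNA of CD31-sorted retinal cells was amplified as full-length cDNA and sequenced as single reads of 50 bases. Per the submitters' processing notes the tools were deepTools, DESeq2, edgeR, STAR and Trimmomatic 0.36, and the build mm10, with no role stated. The read counter is not given in the sources used here. In all, the authors' deposited table gives raw counts, normalized counts (a signal: the count over 1 size factor per library), RPKM, a length, and log2 fold changes with a Wald score, p-values and adjusted p-values, per the file headers. Raw counts were tested, and RPKM was not used, because the deposited length is mostly the genomic span (39 of 47 carriers within 2%). The count column of Ctrl 3 is headed CTR35. It was matched by a constant ratio to the column headed CTR3.

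KO was compared with Ctrl by edgeR 4.0.16 (R 4.3.3; glmQLFit, TMM, filterByExpr, Benjamini-Hochberg over 16217 genes, no covariate), which was tested on simulated data. SE is the log2 fold change over the square root of F. Alternatives used DESeq2 1.42.0, limma 3.58.1 and 16 settings in all. Exonic length and GC content are from GENCODE M21, coordinates and promoters from RefSeq GRCm38.p6. The labels do not say that replicate numbers pair the samples, so the numbers were left out of the main fit. P-values measure the spread between pups.

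Members, gene lists and tests were chosen with earlier results of these data known. Carriers named with values are those past the threshold, the 10 most abundant per kilobase, those without overlap and a change of at least 1, Slc25a37 and Slc25a38. The remaining carriers, and Acly, Fasn, Ucp2 and the pairs of related carriers, were named after their values were seen. Of the other lists, genes past the threshold are named, and besides them Timm22, Timm9, Timm10, Timm10b, Alad and Fech, which did not pass. The glia, mural, ganglion cell and platelet markers had 4, 1, 2 and 2 members higher and 0 lower. The single values of 1 tested carrier and 1 marker are not reported here; both stay in the counts and sums.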

Additional observations from a re-analysis of the deposited data

How the results depend on the processing

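With DESeq2 size factors 2 carriers were lower, with a mean of at least 1 CPM 2, with limma-voom 4, with GC offsets 4 and with DESeq2 7, against 1. Over all genes 696 were lower with DESeq2 size factors, 760 of 14895 with a mean of at least 1 CPM and 923 with limma-voom. The main fit had 720 of 16217 lower. Scaling to equal endothelial markers gave 0 higher and 21 lower carriers, 75 higher and 7584 lower genes (0.979% of calls higher) and a carrier median of −1.27. DESeq2 called 2019 genes higher and 1546 lower, and GC offsets 1179 lower, against 948 and 720. Leaving out 1 library gave 0 to 6 carriers higher, 0 to 7 lower, 0 to 2520 genes higher and 0 to 2407 lower. The highest counts were without KO 1, and without KO 3 there were 499 and 367. Such fits have fewer libraries to estimate spread. With the replicate block 0 carriers were higher and 0 lower, 10 had an unadjusted p below 0.05 (23.8%, all genes 21.0%), and of all genes 1 was higher and 0 lower. Same-numbered libraries did not deviate together (r = −0.39, 0.07 and −0.26). With so few libraries, and no litter or batch in the labels, this cannot show whether the numbers mark a shared litter or batch.

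Of the 42 carriers 21, none of them called, changed sign under at least 1 alternative, 15 with equal endothelial markers and 8 with GC offsets. Among those of the naming rule the values were as follows. With equal endothelial markers Slc25a10 was at −0.85, Slc25a11 −1.23, Slc25a20 −0.57, Slc25a25 −0.84, Slc25a3 −1.03, Slc25a4 −1.07 and Slc25a5 −0.72. With GC offsets Slc25a10 was at −0.22, Slc25a11 −0.31 and Slc25a17 0.13. Slc25a11, near 0, was also at −0.0494 with limma-voom, −0.0471 with the replicate block and −0.0014 with no low-count filter, and between −0.16 and 0.2971 in the fits that left out a library, 4 of them below 0. Slc25a38 was at 0.0157 with DESeq2 size factors, 0.0158 with DESeq2, 0.0499 with upper-quartile scaling, and from −0.2293 (without KO 3) to 0.39 (without KO 1) in the fits that left out a library. Of the others, Slc25a15, Slc25a23, Slc25a24, Slc25a28, Slc25a30, Slc25a35 and Slc25a47 turned negative with equal endothelial markers, Slc25a23 and Slc25a47 negative and Slc25a32 and Slc25a51 positive with GC offsets. Slc25a18, Slc25a24, Slc25a29, Slc25a35, Slc25a47 and Slc25a51 turned in fits that left out a library, and Slc25a47 with limma-voom and the replicate block. Scaling to equal endothelial markers shifts nearly all estimates down by a similar amount: the median of all genes went from 0.03 to −1.23. An estimate a little above 0 thus turns negative there by the scaling alone. What moved the others was not tested, and sign changes were not counted over all genes. The 5 untested carriers had at most 45 counts in a library, too few for a test at this depth.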
